A study of Mus musculus with 8 samples.

Results

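Rab proteins are small GTPases that mark the membranes of a cell and decide where transport vesicles go. The 60 genes described here are those of the deposited expression matrix whose symbol starts with Rab and a digit, out of 29956 named genes in that matrix. Of 69 such symbols, 9 were left out because they name proteins that bind or switch Rab proteins (Rab11fip1 to Rab11fip5, Rab3gap1, Rab3gap2, Rab3il1 and Rab3ip). There were 58 coding genes and 2 processed pseudogenes (Rab11b-ps2 and Rab9b-ps1). The matrix lists Rab1a under its older name Rab1, which is kept here.

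RNA was sequenced from macrophages that had been sorted out of digested mouse livers as live CD45+ F4/80+ cells, negative for CD31. There were 4 libraries from CCl4-treated and 4 from vehicle-treated mice, all BALB/c WT. CCl4 (carbon tetrachloride) is a liver toxin that produces fibrosis when given repeatedly. The sources used here do not give its dose, route and schedule, the vehicle, or the age and sex of the mice, and do not state that each library came from a separate mouse. P-values therefore measure the spread between these libraries, which may be partly technical.

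A Rab protein cycles between a GTP-bound form, which sits on a membrane through a prenyl anchor and recruits effector proteins, and a GDP-bound form, which the GDP dissociation inhibitors carry in the cytosol. Exchange factors load GTP and GTPase-activating proteins (GAPs) end the active state. In macrophages Rab5 and Rab7 act in turn as an engulfed particle moves from early phagosome to lysosome, Rab11 and Rab14 serve recycling, and Rab8, Rab10 and Rab27 serve traffic to the cell surface.

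Libraries held 19489104 (CCl4 4) to 26196063 (CCl4 3) estimated counts. The shallowest 2, CCl4 4 and vehicle 2, also had the most genes above 0, at 23974 and 23168 against 19346 to 21787 in the other 6. The transcripts of the positive markers of the gate did not differ past the threshold. Adgre1, which encodes F4/80, had 1187 ± 166 CPM in CCl4 and 1272 ± 210.0 CPM in vehicle (edgeR adjusted p = 0.768). Ptprc, which encodes CD45, had 623 ± 73.8 CPM in CCl4 and 512 ± 78 CPM in vehicle (edgeR adjusted p = 0.289). Pecam1, which encodes CD31, was detected at 24.4 to 29.9 CPM in CCl4 and 43.5 to 93.2 CPM in vehicle (edgeR adjusted p = 0.00096). Of 8 macrophage and gate genes, Lyz2 was higher and Aif1 lower in CCl4. Transcripts of several cell types differed between the groups. Of 10 Kupffer cell markers 9 were lower in CCl4, with a summed level of 8442 to 14290 CPM in CCl4 and 24090 to 38050 CPM in vehicle. Of 10 sinusoidal endothelial markers 8 were lower, with 216 to 351 CPM in CCl4 and 576 to 965 CPM in vehicle. Of 12 neutrophil markers 7 were higher, with 98 to 369 CPM in CCl4 and 43 to 104 CPM in vehicle, and of 10 mesothelial markers 8 were higher, with 78.5 to 201 CPM in CCl4 and 9.30 to 38.9 CPM in vehicle. Of 9 hepatocyte markers 1 was higher and 1 lower, and of 10 stellate cell markers 3 were higher and 3 lower. Among 8 B and plasma cell markers 1 was lower, among 5 platelet markers tested 1 was lower, and 0 of 9 T and NK cell and 0 of 3 mast cell markers tested passed. In these bulk libraries, more cells of a type and more RNA per cell cannot be told apart, and the part of cell makeup in the Rab results was not tested.

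The macrophages expressed most of the Rab family. On a scale that allows genes to be compared (TPM, the authors' transcript abundance, corrected for length and scaled to 1 total in every library), 9 members averaged over 100 TPM across the 8 libraries, 23 lay between 10 and 100 TPM, 17 between 1 and 10 TPM and 11 under 1 TPM. Summed over all members, the level was 3253, 3351, 3033 and 3185 TPM in CCl4 1 to 4, against 3013, 2729, 3082 and 3192 TPM in vehicle 1 to 4. The groups overlapped.

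The 8 most abundant members spanned the secretory and endocytic routes. Rab20, a GTPase of phagosome maturation, had 462, 479.7, 453 and 421 TPM in CCl4 1 to 4, against 557, 349, 458 and 469 TPM in vehicle 1 to 4. Rab11a, which returns cargo from recycling endosomes to the surface, had 500.3, 465, 366 and 386 TPM in CCl4 1 to 4, against 316, 375, 342 and 389 TPM in vehicle 1 to 4. Rab7, required for fusion of late endosomes and phagosomes with lysosomes, had 323, 297, 349 and 312 TPM in CCl4 1 to 4, against 261, 215, 262 and 284 TPM in vehicle 1 to 4. Among these 3, the libraries of the groups overlapped for Rab20 and Rab11a and lay apart for Rab7, which was higher in every CCl4 library. Rab14, which acts at recycling endosomes and on phagosomes, had 276, 338, 257 and 264 TPM in CCl4 1 to 4, against 203, 294, 255 and 228 TPM in vehicle 1 to 4. Rab32, known for lysosome-related organelles and for defence against bacteria in phagosomes, had 170.1, 232, 162 and 196 TPM in CCl4 1 to 4, against 239.7, 189, 288 and 273 TPM in vehicle 1 to 4. Neither of these 2 lay apart between the groups on this scale. Rab1b, which carries cargo from the endoplasmic reticulum (ER) to the Golgi, had 163, 178, 203 and 173 TPM in CCl4 1 to 4, against 171, 126, 165 and 196 TPM in vehicle 1 to 4. Its relative Rab1, of the same step, had 133, 155, 97.4 and 129.8 TPM in CCl4 1 to 4, against 111, 127, 127 and 130.0 TPM in vehicle 1 to 4. Rab11b, the close relative of Rab11a, had 135, 157, 176 and 151 TPM in CCl4 1 to 4, against 153, 133, 167 and 184 TPM in vehicle 1 to 4. The groups overlapped for these 3 as well. In the order of mean TPM, Rab7 and Rab14 differed by less than the spread between libraries, as did Rab1b and Rab11b. The order depends on the measure. In the authors' expression matrix Rab7 averaged 32.1 FPKM (rank 3 of the members) and Rab14 15.7 FPKM (rank 7). None of the 8 passed the test between groups.

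**Figure D1:**
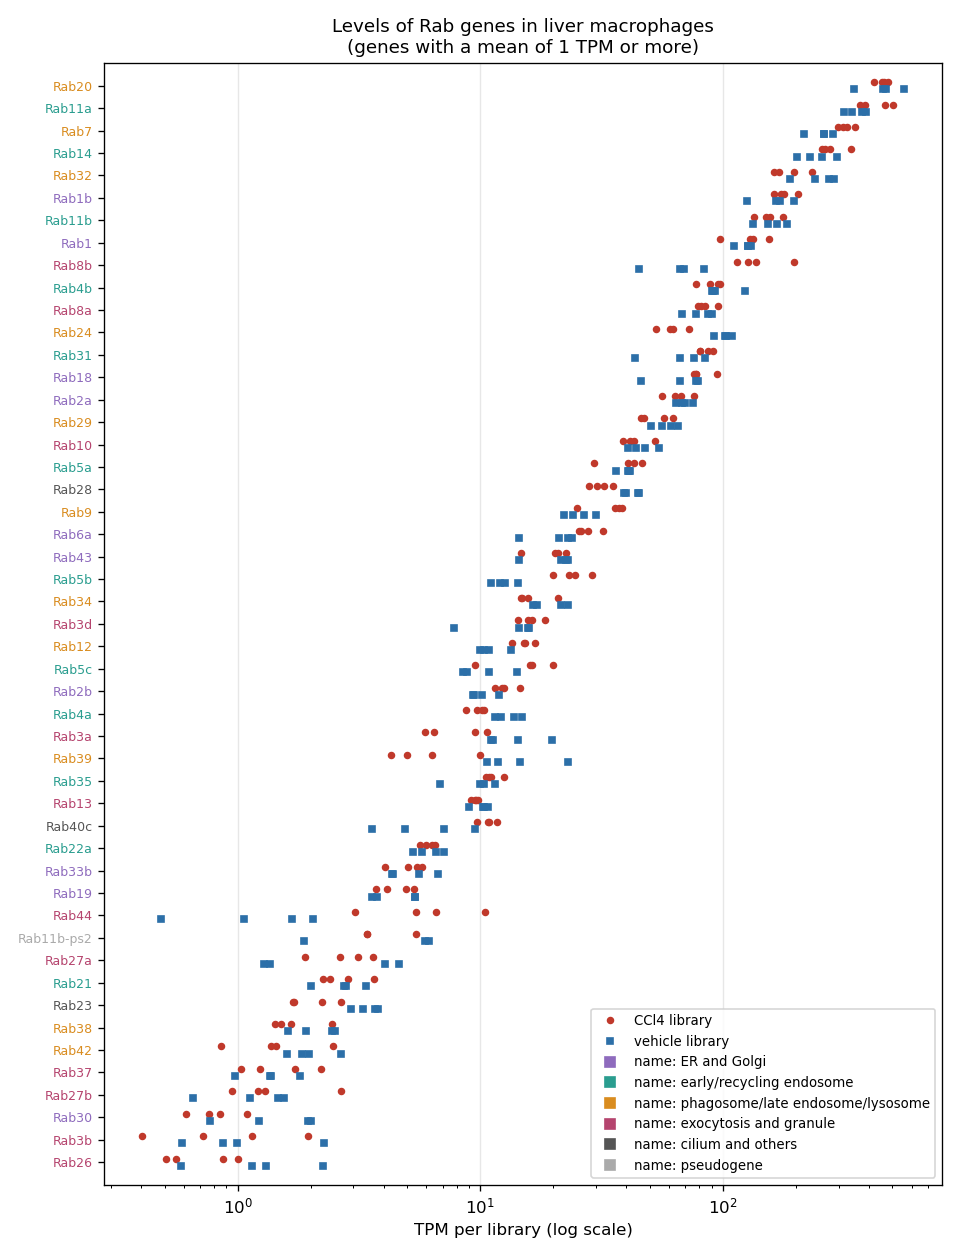
Level of each Rab gene with a mean of 1 TPM or more (49 genes) in each library, on a logarithmic axis in TPM, with CCl4 libraries as circles above vehicle libraries as squares and names coloured by place of action; libraries at 0 TPM cannot be drawn on this axis. Most genes overlap between the groups, while Rab8b and Rab5b sit higher and Rab24 and Rab39 lower in all 4 CCl4 libraries.

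Few Rab genes differed between the groups. Of 60 members, 52 had enough counts to be tested, and 8 of these 52 (15.4%) differed between CCl4 and vehicle by edgeR's quasi-likelihood test at an adjusted p under 0.05, where 15.2% of all 15212 genes tested did. Higher in CCl4 were 4 members (7.69%, against 8.93% of all genes), the exocytic Rab8b and Rab44, the early endosomal Rab5b, and Rab40c. Lower were 4 members (7.69%, against 6.26% of all genes), the autophagy-linked Rab24, the phagosomal Rab39, the secretory Rab3a, and Rab23. The share of members called was thus close to that of all genes. The number of lower members was 1 (Rab24) without CCl4 1, 2 (Rab24 and Rab39) without CCl4 3, vehicle 3 or vehicle 4, and 7 with upper-quartile scaling. The number of higher members ranged from 1 (Rab5b) with unfiltered FPKM to 7 with DESeq2 and without CCl4 4 and vehicle 2. The libraries of the groups did not overlap for 17 of 52 members (32.7%), against 22.5% of all genes. For 41 of 52 members the log2 fold change was within 0.5 of 0. The median log2 fold change over members was 0.05, against -0.03 over all genes, and the median size of the change was 0.27 against 0.34. Values after ± are SD over the 4 libraries of a group. From here on levels are CPM (estimated counts scaled to library size with TMM factors), which suit comparison of 1 gene between libraries.

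**Figure D2:**
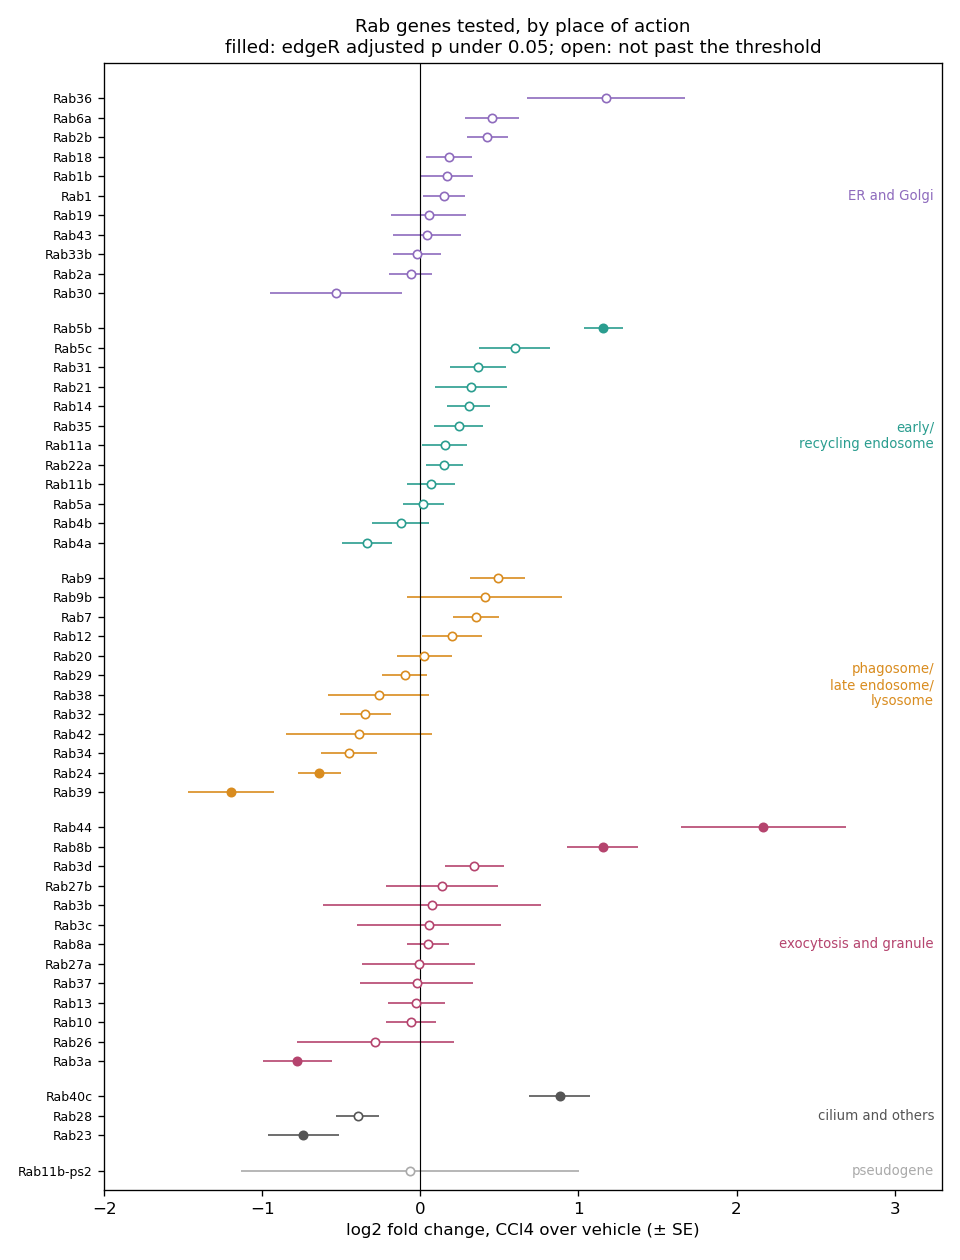
Log2 fold change of each tested Rab gene, CCl4 over vehicle, with bars of 1 SE, grouped by place of action; filled points passed the threshold. The 8 filled points are spread over 4 of the groups, and no ER and Golgi gene is filled.

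Early and recycling endosomes held the call with the smallest adjusted p among the members. Rab5b, 1 of the 3 Rab5 paralogs that drive fusion of early endosomes, had 45.5, 45.3, 43.8 and 47.9 CPM in CCl4 1 to 4, against 21.9, 19.5, 22 and 18.4 CPM in vehicle 1 to 4. All CCl4 libraries exceeded all vehicle libraries, with a narrow spread in each group. The mean was 45.6 ± 1.73 CPM in CCl4 and 20.5 ± 1.76 CPM in vehicle (SD, n = 4 each), a fitted 2.23-fold rise (edgeR adjusted p = 0.000142, log2 fold change 1.16, SE 0.12; chromosome 10, 128677175 to 128696264 in mm10). This call held in each of the 21 other settings tried. The other Rab5 genes did not pass with all libraries: Rab5a had 70.1 ± 7.83 CPM in CCl4 and 69.2 ± 3.64 CPM in vehicle (log2 fold change 0.02, SE 0.13), and Rab5c had 19.7 ± 4.54 CPM in CCl4 and 13.1 ± 3.27 CPM in vehicle (edgeR adjusted p = 0.0999, log2 fold change 0.60, SE 0.22). Rab5c passed as higher without CCl4 2 or without vehicle 2 (edgeR adjusted p = 0.0329 and 0.0292). On the TPM scale Rab5a stayed the most abundant of the 3, at 39.9 ± 7.28 TPM in CCl4 and 39.8 ± 2.27 TPM in vehicle, against 24.1 ± 3.73 TPM in CCl4 and 12.5 ± 1.38 TPM in vehicle for Rab5b.

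The rise of Rab5b lay mostly in its coding transcript. The deposited tables split the gene into Rab5b-201, a coding transcript of 3180 bases, and Rab5b-202, a retained-intron transcript of 1629 bases. Of the gene's estimated counts, Rab5b-201 took 68.1, 78.7, 78.3 and 73.6% in CCl4 1 to 4, against 59.1, 59.6, 55.1 and 59.3% in vehicle 1 to 4. This share was higher in every CCl4 library than in any vehicle library. Rab5b-201 itself had 34 ± 2.11 CPM in CCl4 and 11.9 ± 0.841 CPM in vehicle, 2.86 times as much, while Rab5b-202 had 11.6 ± 2.44 CPM in CCl4 and 8.55 ± 1.07 CPM in vehicle, 1.35 times as much (SD, n = 4 each). Leading transcripts could be compared in 33 members with more than 1 annotated transcript and a mean of at least 100 counts, and their share lay apart between groups in 3 of them. The others were Rab12, at 87.2 ± 2.88% in CCl4 and 93 ± 2.38% in vehicle (SD, n = 4 each), and Rab5a, at 99.6 ± 0.188% in CCl4 and 99.1 ± 0.399% in vehicle (SD, n = 4 each). Such shares are estimates from reads that fit several transcripts, and no test was run on them. How often they lay apart over all genes was not counted.

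**Figure D3:**
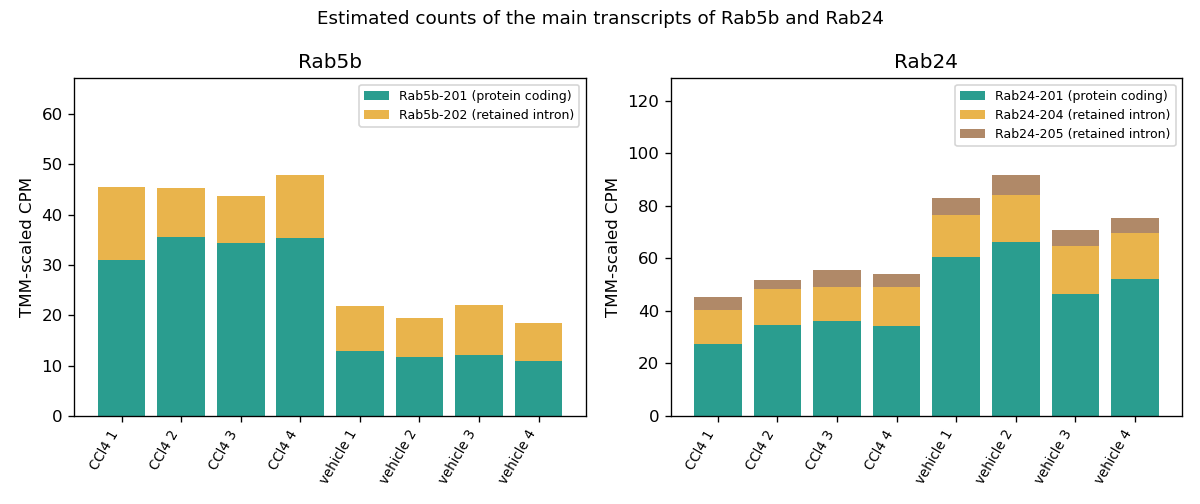
Stacked TMM-scaled CPM of the main transcripts of Rab5b and Rab24 in each library, CCl4 1 to 4 left of vehicle 1 to 4; minor transcripts are not drawn. The coding transcript Rab5b-201 is 31 to 35.6 CPM in CCl4 and 10.9 to 12.9 CPM in vehicle, while Rab5b-202 is 9.49 to 14.5 CPM in CCl4 and 7.51 to 9.86 CPM in vehicle.

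None of the remaining early and recycling endosomal genes passed the edgeR test with all libraries. This left 1 of 12 tested genes of the group past the threshold, where 15.2% of all genes were. With Rab5b included, 10 of 12 tested had a positive log2 fold change, with a median of 0.20. Those of Rab5a and Rab22a turned negative with FPKM. That of Rab5a also did so with library-size or upper-quartile scaling and in some fits with libraries left out. Of the 12, 5 lay apart between groups, where 22.5% of all genes did. Rab31, which acts between the trans-Golgi and endosomes, had 227 ± 13.7 CPM in CCl4 and 176 ± 38.4 CPM in vehicle (edgeR adjusted p = 0.199, log2 fold change 0.36, SE 0.17). Rab14 had 310.2, 356, 310.3 and 292 CPM in CCl4 1 to 4, against 237, 285, 264 and 240.0 CPM in vehicle 1 to 4. Its CCl4 libraries were all above its vehicle libraries, by a fitted 1.24-fold (edgeR adjusted p = 0.17, log2 fold change 0.31), and it passed with DESeq2 (adjusted p = 0.0479) or without CCl4 4 and vehicle 2 (edgeR adjusted p = 0.0445). Rab22a, an early endosomal GTPase, had 34.2 ± 1.23 CPM in CCl4 and 30.8 ± 1.11 CPM in vehicle (edgeR adjusted p = 0.45, log2 fold change 0.15, SE 0.12). Rab4a, of fast recycling, was the member of this group with the lowest fold change, at 8.87 ± 1.00 CPM in CCl4 and 11.2 ± 0.127 CPM in vehicle (edgeR adjusted p = 0.184, log2 fold change -0.34, SE 0.16), and its paralog Rab4b had 68.8 ± 11.6 CPM in CCl4 and 75.1 ± 17.3 CPM in vehicle (log2 fold change -0.13, SE 0.18). Rab11a had 247 ± 31 CPM in CCl4 and 222 ± 12.2 CPM in vehicle (edgeR adjusted p = 0.543, log2 fold change 0.15, SE 0.14). For Rab11b the log2 fold change was 0.07 (SE 0.15), and its sign turned with library-size or upper-quartile scaling. Rab21, of integrin uptake, and Rab35, of fast recycling, had log2 fold changes of 0.32 and 0.24 (SE 0.23 and 0.16), and Rab21 passed as higher without CCl4 4 and vehicle 2 (edgeR adjusted p = 0.0368). Rab15, Rab17 and Rab25, which serve neurons and polarised epithelia, were too low to test.

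Of 13 tested genes of exocytosis and secretory granules, 2 were higher and 1 lower, where 8.93% and 6.26% of all genes were. Rab8b, which directs vesicles to the plasma membrane, had 761, 472, 481 and 456 CPM in CCl4 1 to 4, against 324, 177, 238 and 237 CPM in vehicle 1 to 4. All CCl4 libraries were above all vehicle libraries, and CCl4 1 stood clear of the other CCl4 libraries. The mean was 542 ± 146 CPM in CCl4 and 244 ± 60.5 CPM in vehicle (SD, n = 4 each), a fitted 2.22-fold rise (edgeR adjusted p = 0.0049, log2 fold change 1.15, SE 0.22; chromosome 9, 66843664 to 66919687). Without CCl4 1 the log2 fold change was 0.97 (edgeR adjusted p = 0.0133). The call ended when all rows of the authors' FPKM matrix were tested with no filter on low values (limma adjusted p = 0.0851). Its paralog Rab8a did not pass, at 166 ± 17.2 CPM in CCl4 and 161 ± 7.1 CPM in vehicle (edgeR adjusted p = 0.861, log2 fold change 0.05, SE 0.13). On the TPM scale Rab8b had 144 ± 36.8 TPM in CCl4 and 66.1 ± 15.8 TPM in vehicle, and Rab8a had 85.1 ± 7.25 TPM in CCl4 and 80.5 ± 9.86 TPM in vehicle, so that the order of the means of the 2 paralogs differed between the groups.

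Rab44, an unusually large Rab known from granule release in mast cells, had 14.5, 10.3, 7.02 and 4.85 CPM in CCl4 1 to 4, against 1.96, 1.53, 0.514 and 4.12 CPM in vehicle 1 to 4. The lowest CCl4 library, CCl4 4, was only slightly above the highest vehicle library, vehicle 4. The mean was 9.17 ± 4.21 CPM in CCl4 and 2.03 ± 1.52 CPM in vehicle (SD, n = 4 each), a fitted 4.5-fold rise (edgeR adjusted p = 0.0159, log2 fold change 2.17, SE 0.52; chromosome 17, 29114145 to 29148980). Without CCl4 1 the call ended (log2 fold change 1.87, edgeR adjusted p = 0.0635), as it did in the unfiltered FPKM matrix (limma adjusted p = 0.664). Neutrophil markers were high in the same libraries: summed over 12 genes they had 369, 356, 253 and 98 CPM in CCl4 1 to 4, against 64.4, 56.2, 43 and 104 CPM in vehicle 1 to 4. On the CPM scale both were highest in CCl4 1 and lowest, among CCl4 libraries, in CCl4 4. Among vehicle libraries both were highest in vehicle 4 on that scale. On the TPM scale Rab44 was also highest in CCl4 1. Its lowest CCl4 library in TPM was, however, CCl4 3, and its highest vehicle library was vehicle 1. The match with the neutrophil markers thus depended on the scale. Of the neutrophil markers 7 of 12 rose and 0 fell. Elane, neutrophil elastase, had 3.93, 7.22, 3.44 and 2.57 CPM in CCl4 1 to 4 and no counts in any vehicle library, which allows a level of up to 0.118 to 0.139 CPM there (3 counts per library). Mast cell markers summed to 11.6 to 16.8 CPM in CCl4 and 6.36 to 11.8 CPM in vehicle, most of it from Kit, and Mcpt4 was at 0 in all libraries but CCl4 2. The part of neutrophils or mast cells in the rise of Rab44 was not tested.

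Rab3a, which docks secretory vesicles in neurons and lysosomes at the plasma membrane, went the other way, with 5.55, 9.07, 6.61 and 7.37 CPM in CCl4 1 to 4, against 9.81, 11.4, 16.4 and 11.5 CPM in vehicle 1 to 4. The groups did not overlap, though CCl4 2 came close to vehicle 1. The mean was 7.15 ± 1.48 CPM in CCl4 and 12.3 ± 2.86 CPM in vehicle (SD, n = 4 each; edgeR adjusted p = 0.0323, log2 fold change -0.78, SE 0.22; chromosome 8, 70754679 to 70758677). That call rested on single libraries: it ended without CCl4 1, CCl4 3, CCl4 4, vehicle 3 or vehicle 4 (edgeR adjusted p of 0.111, 0.0971, 0.0577, 0.106 and 0.0615), with length-scaled TPM counts (0.0518) and with the FPKM matrix (limma adjusted p of 0.0745 to 0.23). Its exons overlap those of Mpv17l2 on the opposite strand by 29 bases, and Mpv17l2 had 33.1 ± 6.47 CPM in CCl4 and 34 ± 2.8 CPM in vehicle (log2 fold change -0.04, edgeR adjusted p = 0.909).

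The other genes of exocytosis and granules did not pass. Rab3d, a granule GTPase, had 46.9 ± 6.67 CPM in CCl4 and 37 ± 8.35 CPM in vehicle (edgeR adjusted p = 0.267, log2 fold change 0.34, SE 0.19), and Rab10, of exocytosis and phagosome recycling, had 120.5 ± 18.9 CPM in CCl4 and 126 ± 18.9 CPM in vehicle (edgeR adjusted p = 0.852, log2 fold change -0.06, SE 0.16). Rab27a, which tethers granules at the plasma membrane, spread from 3.8 to 6.24 CPM in CCl4 and 2.93 to 7.9 CPM in vehicle (edgeR adjusted p = 0.989, log2 fold change -0.01, SE 0.36). Rab13, known from epithelial junctions, was even across all 8 libraries, at 5.8 to 7.74 CPM in CCl4 and 6.78 to 7.37 CPM in vehicle. Rab3b, Rab3c, Rab26, Rab27b and Rab37 stayed under 7 CPM in every library. Summed over the 13 genes of this group the level was 384, 295, 278 and 329 TPM in CCl4 1 to 4, against 261, 195, 248 and 261 TPM in vehicle 1 to 4, so every CCl4 library was above every vehicle library. Rab8b alone made up 144 TPM of the CCl4 mean of 321 TPM and 66.1 TPM of the vehicle mean of 241 TPM.

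**Figure D4:**
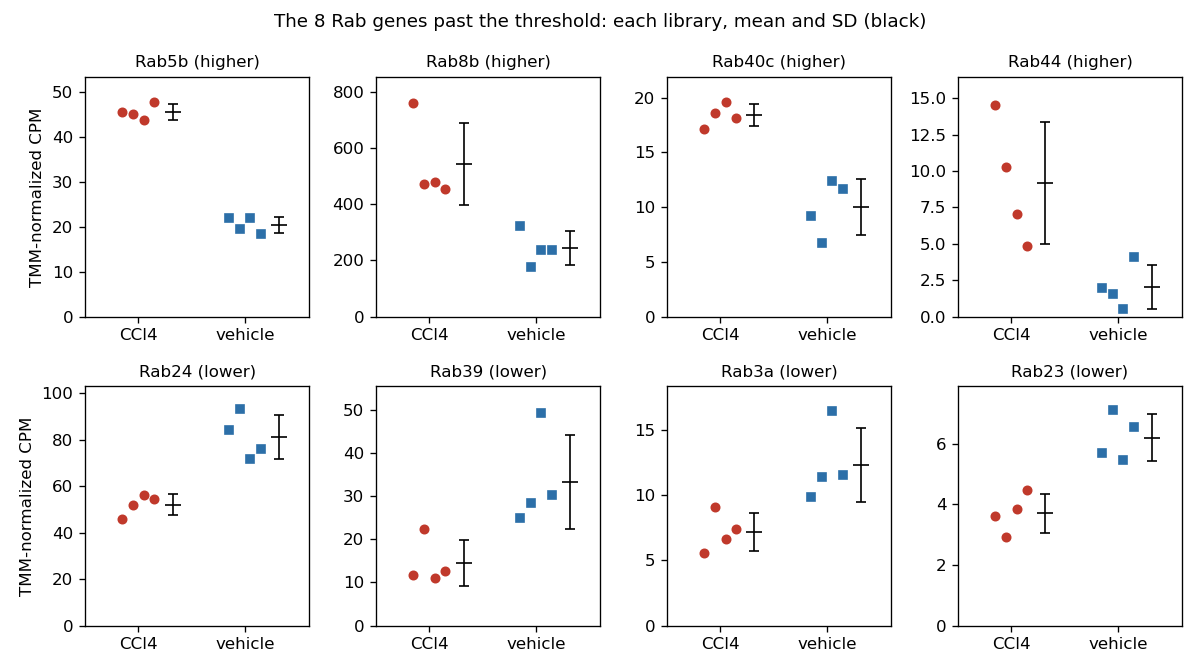
TMM-normalized CPM of the 8 Rab genes past the threshold in each library, CCl4 (circles) left of vehicle (squares), with the mean and SD of each group in black. In each panel the libraries of the groups do not overlap.

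Of 12 tested genes of phagosomes, late endosomes and lysosomes, 2 were lower and 0 higher, where 6.26% and 8.93% of all genes were. Rab24, an atypical Rab with low GTPase activity that acts in late steps of autophagy, had 45.7, 52.1, 56 and 54.5 CPM in CCl4 1 to 4, against 84.1, 93, 71.6 and 75.9 CPM in vehicle 1 to 4. Every CCl4 library was below every vehicle library. The mean was 52.1 ± 4.57 CPM in CCl4 and 81.2 ± 9.47 CPM in vehicle (SD, n = 4 each; edgeR adjusted p = 0.00823, log2 fold change -0.64, SE 0.14; chromosome 13, 55319743 to 55321946), and the call held in each of the 21 other settings. The coding transcript Rab24-201 had 33 ± 3.93 CPM in CCl4 and 56.3 ± 8.79 CPM in vehicle, and the retained-intron transcript Rab24-204 had 13.7 ± 0.949 CPM in CCl4 and 17.4 ± 0.951 CPM in vehicle (SD, n = 4 each). Exons of Prelid1, a mitochondrial lipid carrier gene on the opposite strand, overlap those of Rab24 by 830 bases at the longest stretch. No step is stated that would keep the strands apart. Prelid1 had 123 ± 19.2 CPM in CCl4 and 103 ± 7.81 CPM in vehicle (edgeR adjusted p = 0.308, log2 fold change 0.25, SE 0.15).

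Rab39, known from human macrophages for phagosome acidification, had 11.7, 22.4, 11 and 12.7 CPM in CCl4 1 to 4, against 25, 28.3, 49.3 and 30.2 CPM in vehicle 1 to 4. The groups did not overlap, with CCl4 2 closest to the vehicle range and vehicle 3 far above it. The mean was 14.4 ± 5.37 CPM in CCl4 and 33.2 ± 10.9 CPM in vehicle (SD, n = 4 each; edgeR adjusted p = 0.0112, log2 fold change -1.20, SE 0.27; chromosome 9, 53684110 to 53706232), a fitted fold of 0.436. Without CCl4 1 its edgeR adjusted p was 0.0501, and in the unfiltered FPKM matrix its limma adjusted p was 0.13. It fell in the same libraries in which 9 of 10 Kupffer cell markers and 8 of 10 sinusoidal endothelial markers fell. The part of cell makeup in the fall of Rab39 was not tested.

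The abundant genes of this group changed less. Rab20 had 452, 449.6, 479.7 and 351 CPM in CCl4 1 to 4, against 544, 349, 407 and 403 CPM in vehicle 1 to 4 (edgeR adjusted p = 0.948, log2 fold change 0.02, SE 0.17), and the sign of its change turned with library-size or upper-quartile scaling. Rab7 had 481, 445, 524 and 395 CPM in CCl4 1 to 4, against 394, 335, 359 and 359.8 CPM in vehicle 1 to 4. Its CCl4 libraries were all above its vehicle libraries by a slim margin, by a fitted 1.27-fold (edgeR adjusted p = 0.133, log2 fold change 0.35, SE 0.14), and it passed with DESeq2 (adjusted p = 0.0376). Rab32 had 269, 354, 274 and 263 CPM in CCl4 1 to 4, against 377, 306, 415 and 379 CPM in vehicle 1 to 4 (edgeR adjusted p = 0.176, log2 fold change -0.35, SE 0.16). It was lower in CCl4 1, 3 and 4 than in any vehicle library, whereas CCl4 2 lay inside the vehicle range, and of the 21 other settings it passed in that with upper-quartile scaling (edgeR adjusted p = 0.0479). Rab9, of transport from late endosomes to the trans-Golgi, had 33.2 ± 5.51 CPM in CCl4 and 23.7 ± 4.49 CPM in vehicle (edgeR adjusted p = 0.0892, log2 fold change 0.49, SE 0.18), and it passed as higher without vehicle 2 (edgeR adjusted p = 0.0316) and without CCl4 4 and vehicle 2 (0.031). Rab34, which moves lysosomes towards the cell centre, had 11.9 ± 1.93 CPM in CCl4 and 16.3 ± 2.66 CPM in vehicle (edgeR adjusted p = 0.115, log2 fold change -0.45, SE 0.18), with no overlap between groups. It passed as lower with library-size and with upper-quartile scaling (edgeR adjusted p = 0.0274 and 0.0355). With length-scaled TPM counts its log2 fold change was only -0.22 (edgeR adjusted p = 0.489). With FPKM at a pseudocount of 1 it was -0.06 (limma adjusted p = 0.847). Rab29, a regulator of Lrrk2, had 40.4 ± 5.55 CPM in CCl4 and 43.3 ± 4.86 CPM in vehicle (log2 fold change -0.10, SE 0.14), and Rab12, of transport from recycling endosomes to lysosomes, had 12.5 ± 1.62 CPM in CCl4 and 10.9 ± 2.27 CPM in vehicle (log2 fold change 0.20, SE 0.19). Rab38, a relative of Rab32, Rab42 and Rab9b were under 4 CPM in every library and did not pass. Over the 12 genes the median log2 fold change was -0.18, and 7 of 12 were negative.

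A further late endosomal Rab is left out of the 60 by its name. Rab7b, a relative of Rab7 that returns cargo from late endosomes to the Golgi and lowers Toll-like receptor signalling, is listed in the matrix under an older clone name. It was chosen after its values were seen. In the count tables it had 279, 142, 285 and 187 CPM in CCl4 1 to 4, against 117, 59, 76.1 and 93.9 CPM in vehicle 1 to 4. Every CCl4 library was above every vehicle library (edgeR adjusted p = 0.00438, log2 fold change 1.37, SE 0.26; chromosome 1, 131688695 to 131715439). In the unfiltered FPKM matrix the limma adjusted p was 0.0797.

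Where 15.2% of all genes passed, none of the 11 tested genes of the ER and Golgi did. Their log2 fold changes ran from -0.53 to 1.17 with a median of 0.15, and 2 lay apart between groups, where 22.5% of all genes did. Rab2b, which acts at the Golgi and in autophagy, came closest, with 26.2 to 28.8 CPM in CCl4 and 17.7 to 22.8 CPM in vehicle (edgeR adjusted p = 0.0501, log2 fold change 0.42, SE 0.13). It passed with DESeq2, with DESeq2 size factors in edgeR and with a minimum count of 30. With length-scaled TPM counts its log2 fold change was 0.34 (edgeR adjusted p = 0.162). With FPKM at a pseudocount of 1 it was 0.09 (limma adjusted p = 0.683). Rab6a, which carries cargo back from the Golgi, had 65.9 ± 8.76 CPM in CCl4 and 48.1 ± 9.48 CPM in vehicle (edgeR adjusted p = 0.105, log2 fold change 0.45, SE 0.17). Its paralog Rab6b was too low to test. Rab1 had 217 ± 22.5 CPM in CCl4 and 195 ± 2.18 CPM in vehicle (edgeR adjusted p = 0.515, log2 fold change 0.15, SE 0.13) and Rab1b had 247 ± 44.8 CPM in CCl4 and 220.5 ± 29.7 CPM in vehicle (edgeR adjusted p = 0.583, log2 fold change 0.17, SE 0.17). Rab18, of lipid droplets and the ER, had 112 ± 11.3 CPM in CCl4 and 99.1 ± 12.8 CPM in vehicle (log2 fold change 0.18, SE 0.14), and Rab2a had 103 ± 2.88 CPM in CCl4 and 107 ± 14 CPM in vehicle (log2 fold change -0.06, SE 0.13). Rab36 had the largest fold change of the group but few counts, at 0.905 to 3.38 CPM in CCl4 and 0.396 to 1.16 CPM in vehicle (edgeR adjusted p = 0.148, log2 fold change 1.17, SE 0.50). Rab43 shares exon with Gm45140 on the same strand, with a longest stretch of 3980 bases, so its counts can be split between the 2 genes. Rab43 had 61.5 ± 14.2 CPM in CCl4 and 59.6 ± 14.6 CPM in vehicle and Gm45140 had 12.1 ± 4.18 CPM in CCl4 and 10.2 ± 3.61 CPM in vehicle. Rab6a also overlaps Mrpl48 on the opposite strand, with a longest exon stretch of 409 bases. For Rab2b the longest stretches are 158 bases with Tox4 and 2459 with the gene model Gm43766. The Golgi genes Rab19, Rab30 and Rab33b did not pass either.

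Of the 4 genes with other roles 3 were tested, and Rab40c and Rab23 passed in opposite directions, where 15.2% of all genes passed. Rab40c, whose protein carries a SOCS box and works in a ubiquitin ligase, had 17.2, 18.6, 19.6 and 18.2 CPM in CCl4 1 to 4, against 9.17, 6.73, 12.3 and 11.6 CPM in vehicle 1 to 4. All CCl4 libraries were above all vehicle libraries. The mean was 18.4 ± 1.01 CPM in CCl4 and 9.97 ± 2.55 CPM in vehicle (SD, n = 4 each), a fitted 1.84-fold rise (edgeR adjusted p = 0.00964, log2 fold change 0.88, SE 0.19; chromosome 17, 25882114 to 25919727). The call ended with length-scaled TPM counts (edgeR adjusted p = 0.052) and with the FPKM matrix (limma adjusted p of 0.183 to 0.436). Its exons overlap the antisense gene Gm16278 by 103 bases at the longest stretch. Of the gene's estimated counts, the noncoding Rab40c-205 took 60.1, 63.4, 57.5 and 57.6% in CCl4 1 to 4, against 24.7, 28.1, 69.5 and 25.4% in vehicle 1 to 4. This share was higher in every CCl4 library than in vehicle 1, 2 and 4, but was highest in vehicle 3. Against vehicle 1, 2 and 4, Rab40c-205 thus rose by a larger factor than the whole gene, and against vehicle 3 by a smaller one. How much of the rise lay in coding transcripts was not tested.

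Rab23, a brake on Hedgehog signalling that acts at the primary cilium, had 3.61, 2.92, 3.85 and 4.47 CPM in CCl4 1 to 4, against 5.69, 7.11, 5.46 and 6.56 CPM in vehicle 1 to 4. With 74 to 164 estimated counts per library, the groups did not overlap (edgeR adjusted p = 0.0455, log2 fold change -0.74, SE 0.22, chromosome 1, 33719887 to 33742564). Of the 8 calls it was lost in the most settings. It ended without CCl4 1, CCl4 2, CCl4 3 or any vehicle library (edgeR adjusted p of 0.069 to 0.128), with no filter (0.16), with the replicate block (0.0922), with length-scaled TPM counts (0.0955) and with unfiltered FPKM (limma adjusted p = 0.268). Rab28, which serves photoreceptor cilia, had 35.7 ± 1.85 CPM in CCl4 and 47.1 ± 6.85 CPM in vehicle with no overlap between groups but did not pass (edgeR adjusted p = 0.0783, log2 fold change -0.40, SE 0.14), except with library-size and upper-quartile scaling (edgeR adjusted p = 0.0261 and 0.0404). Rab40b was too low to test. Of the pseudogenes, Rab11b-ps2 averaged 1.06 ± 0.817 CPM in CCl4 and 1.11 ± 0.955 CPM in vehicle, with reads that Rab11b could also claim, and Rab9b-ps1 was not tested. All 8 untested members stayed at or below 1.81 CPM in every library.

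The start regions of Rab5b, Rab8b and Rab24 are printed as those of the rising pair with the largest counts and of the fall that held in every setting. Each spans 250 bases before to 50 bases after the gene's start in RefSeq, build GRCm38.p6, read 5′ to 3′ on the gene's strand (minus for all 3), at chr10:128696219-128696518, chr9:66919656-66919955 and chr13:55321931-55322230. Capitals mark every match, on either strand, to GGGCGG (the GC box), to CCAAT or to CACGTG (an E-box).
Rab5b: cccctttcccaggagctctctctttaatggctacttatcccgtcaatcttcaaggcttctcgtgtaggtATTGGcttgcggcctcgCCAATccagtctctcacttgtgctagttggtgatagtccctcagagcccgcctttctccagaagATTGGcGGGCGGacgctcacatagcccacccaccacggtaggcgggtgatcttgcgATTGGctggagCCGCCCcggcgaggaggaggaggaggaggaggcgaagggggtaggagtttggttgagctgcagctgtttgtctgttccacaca
Rab8b: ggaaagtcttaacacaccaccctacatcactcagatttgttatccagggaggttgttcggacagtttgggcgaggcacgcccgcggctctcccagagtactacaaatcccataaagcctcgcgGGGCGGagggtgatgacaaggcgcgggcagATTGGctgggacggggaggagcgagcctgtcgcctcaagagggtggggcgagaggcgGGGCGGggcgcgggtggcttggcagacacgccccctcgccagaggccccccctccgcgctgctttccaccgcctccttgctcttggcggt
Rab24: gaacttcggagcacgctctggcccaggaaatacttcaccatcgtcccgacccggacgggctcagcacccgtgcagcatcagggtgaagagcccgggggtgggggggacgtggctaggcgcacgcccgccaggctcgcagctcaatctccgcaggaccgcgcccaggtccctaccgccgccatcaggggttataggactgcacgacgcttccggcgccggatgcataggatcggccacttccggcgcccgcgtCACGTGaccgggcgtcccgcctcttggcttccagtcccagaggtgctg

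Rab5b held 2 GC boxes and 4 CCAAT boxes, Rab8b 2 GC boxes and 1 CCAAT box, and Rab24 held 1 E-box and neither of the other motifs. Windows were found for 48 of 60 members, 60 windows in all. GGGCGG occurred in 41 of these 60 windows (68.3%), against 35.7% of all 32851 RefSeq windows, and CCAAT in 26 (43.3%), against 37.4%. CACGTG occurred in 6 (10%), against 7.15%, TGACTCA (AP-1) in 3 (5%), against 5.20%, and GAGGAAGT (PU.1) in 2 (3.33%), against 3.20%. In the printed windows no marked match overlaps another. These are counts of letters in fixed windows, with motifs chosen after the expression values were known, and they say nothing of binding.

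Among genes that load, switch and read Rab GTPases, more were higher than lower in CCl4. Over 5 lists with 137 genes, 133 were tested, and 18 were higher (13.5%, against 8.93% of all genes) and 4 lower (3.01%, against 6.26%), with a median log2 fold change of 0.18. For prenylation and extraction 1 of 7 genes passed. It was Rabac1, a receptor that frees Rab proteins from their inhibitor, with 127 ± 17.5 CPM in CCl4 and 88.4 ± 4.49 CPM in vehicle (edgeR adjusted p = 0.0246, log2 fold change 0.53, SE 0.14). That call ended without CCl4 2, CCl4 3, vehicle 3 or vehicle 4 (edgeR adjusted p of 0.0523 to 0.0864). Gdi2, a GDP dissociation inhibitor that keeps Rab proteins soluble, did not pass, with 591 ± 79.6 CPM in CCl4 and 478 ± 66.8 CPM in vehicle (edgeR adjusted p = 0.25, log2 fold change 0.31, SE 0.16). Chm, the escort protein for prenylation, had 12.6 ± 1.51 CPM in CCl4 and 11.3 ± 1.13 CPM in vehicle (edgeR adjusted p = 0.594, log2 fold change 0.16), and Rabggta, a subunit of the Rab prenyl transferase, had 44.1 ± 5.72 CPM in CCl4 and 58.5 ± 13.8 CPM in vehicle (edgeR adjusted p = 0.182, log2 fold change -0.41). Rabggta passed as lower without vehicle 2 (edgeR adjusted p = 0.0108).

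Exchange factors gave 4 higher and 2 lower of 36 tested (11.1% and 5.56%, against 8.93% and 6.26% of all genes). Dennd4c and Dennd4a, which load Rab10, had 22.6, 18, 27 and 26.9 CPM in CCl4 1 to 4, against 10.3, 5.67, 8.35 and 11.3 CPM in vehicle 1 to 4 for Dennd4c (edgeR adjusted p = 0.00142, log2 fold change 1.41, SE 0.22), and 116, 105, 116 and 119.9 CPM in CCl4 1 to 4, against 64.3, 58.2, 40.1 and 59.5 CPM in vehicle 1 to 4 for Dennd4a (edgeR adjusted p = 0.00117, log2 fold change 1.04, SE 0.16). Both had all CCl4 libraries above all vehicle libraries, while their substrate Rab10 did not pass the test. Rin3, which loads Rab5 and Rab31, had 92 ± 18.1 CPM in CCl4 and 50.2 ± 13.8 CPM in vehicle (edgeR adjusted p = 0.0201, log2 fold change 0.87, SE 0.22), a call that ended without CCl4 1, CCl4 3 or vehicle 4 (edgeR adjusted p of 0.0524, 0.0537 and 0.0549). Lower was Dennd2d, which loads Rab9, with 18 ± 1.53 CPM in CCl4 and 29.8 ± 4.34 CPM in vehicle (edgeR adjusted p = 0.00625, log2 fold change -0.73, SE 0.15).

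GAPs gave 5 higher and 1 lower of 36 tested (13.9% and 2.78%, against 8.93% and 6.26% of all genes). Tbc1d2, a GAP of Rab7, had 4.02, 4.1, 5.88 and 8.13 CPM in CCl4 1 to 4, against 2.44, 1.02, 1.42 and 2.68 CPM in vehicle 1 to 4 (edgeR adjusted p = 0.0156, log2 fold change 1.54, SE 0.37). Its groups lay apart at low levels. Tbc1d15, another GAP of Rab7, had 101 ± 12.9 CPM in CCl4 and 69.2 ± 6.45 CPM in vehicle (edgeR adjusted p = 0.0227, log2 fold change 0.55, SE 0.14), and Tbc1d23, which captures endosome-derived vesicles at the Golgi, had 90.1 ± 10.3 CPM in CCl4 and 59.7 ± 11.2 CPM in vehicle (edgeR adjusted p = 0.0317, log2 fold change 0.59, SE 0.17). The call of Tbc1d15 ended without CCl4 1, CCl4 2, vehicle 3 or vehicle 4 (edgeR adjusted p of 0.0551, 0.055, 0.0768 and 0.0658), and that of Tbc1d23 without CCl4 1, CCl4 3 or vehicle 4 (0.0807, 0.0648 and 0.0828) or with library-size scaling (0.0591). With length-scaled TPM counts those of Tbc1d2 and Tbc1d15 ended too (edgeR adjusted p = 0.0534 and 0.0733). Lower was Evi5, described as a GAP of Rab11, with 25.2, 29.9, 23.9 and 27.7 CPM in CCl4 1 to 4, against 44.2, 45.7, 42 and 40.6 CPM in vehicle 1 to 4 (edgeR adjusted p = 0.00355, log2 fold change -0.69, SE 0.13), a fall present in every CCl4 library.

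Effectors and kinases gave 7 higher and 1 lower of 44 tested (15.9% and 2.27%, against 8.93% and 6.26% of all genes). Rab11fip1 and Rab11fip5, which link Rab11 to motors and recycling endosomes, were among the largest rises. Rab11fip1 had 180.2, 92.5, 127 and 91.4 CPM in CCl4 1 to 4, against 47.6, 20.1, 26.1 and 41.6 CPM in vehicle 1 to 4 (edgeR adjusted p = 0.00151, log2 fold change 1.86, SE 0.30), and Rab11fip5 had 27.8, 24.8, 34.2 and 26.9 CPM in CCl4 1 to 4, against 8.61, 8.08, 10.6 and 13.3 CPM in vehicle 1 to 4 (edgeR adjusted p = 0.000337, log2 fold change 1.48, SE 0.19). Neither gene overlapped between the groups, whereas Rab11a and Rab11b did not pass. Lrrk2, the kinase that phosphorylates Rab8, Rab10 and other Rab proteins, had 15.1, 14.1, 10.0 and 14.4 CPM in CCl4 1 to 4, against 5.61, 5.48, 3.44 and 7.36 CPM in vehicle 1 to 4 (edgeR adjusted p = 0.00374, log2 fold change 1.29, SE 0.24). Every CCl4 library was above every vehicle library. Wdr91, a Rab7 effector of endosome maturation, had 109 ± 13.8 CPM in CCl4 and 58.4 ± 12.5 CPM in vehicle (edgeR adjusted p = 0.00445, log2 fold change 0.90, SE 0.17). Among 10 genes of the HOPS, CORVET and CHEVI tethers, which hold endosomes and lysosomes together before fusion, 1 passed, Vipas39, with 46.8 ± 3.67 CPM in CCl4 and 32.7 ± 6.12 CPM in vehicle (edgeR adjusted p = 0.049, log2 fold change 0.51, SE 0.16). That call ended when any 1 library except vehicle 2 was left out (edgeR adjusted p of 0.0568 to 0.126) and with library-size scaling (0.135).

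**Figure D5:**
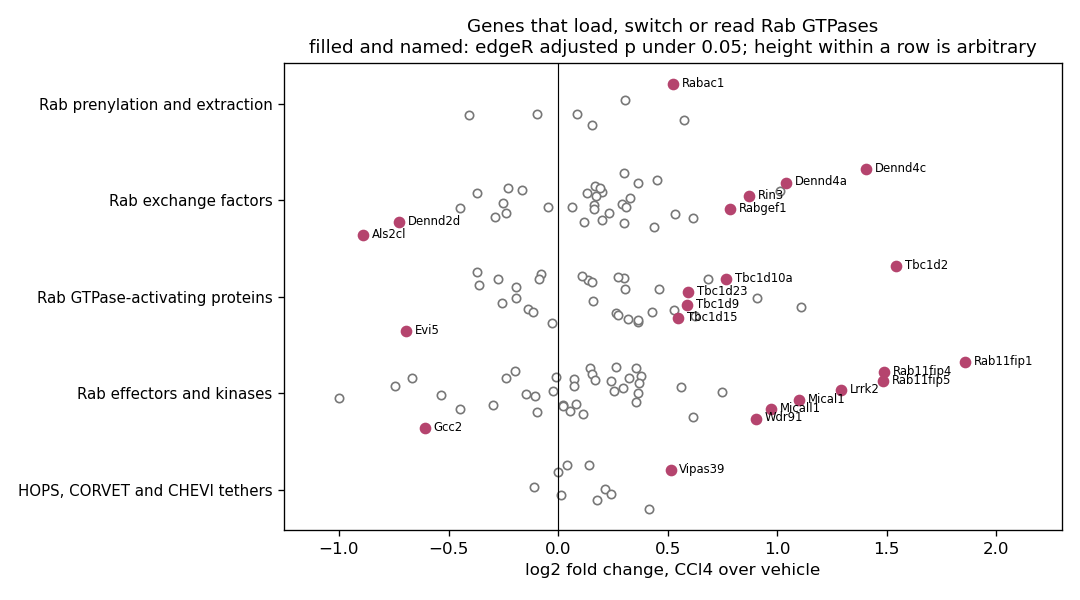
Log2 fold change, CCl4 over vehicle, of the 133 tested genes that load, switch or read Rab GTPases, 1 row per list; filled and named points passed the threshold and height within a row carries no meaning. The 18 higher genes reach 1.86 (Rab11fip1), and the 4 lower genes are Als2cl, Dennd2d, Evi5 and Gcc2.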

How the data were processed

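The members, gene lists and alternatives were chosen with earlier results of these data known. The submitters' processing notes name mm10, kallisto, edgeR and limma, without versions or roles. The authors deposited, per library, estimated counts and TPM per transcript, and for the series an FPKM matrix per gene of unstated making. Amplification used the SMART-Seq HT kit and no step that marks strand is stated, per the labels' protocols.

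Transcripts were assigned to genes with GENCODE M21 by identifier. Of 117494 per file, 116405 matched, and the 1089 others held 0.29% to 0.313% of counts and were left out. In the FPKM matrix 1 line without a name held 0.0156% to 0.0369% of values. All 60 members matched, 1 by another name. Estimated counts were summed per gene, rounded, filtered with filterByExpr (minimum count 10, total 15), which set aside 20694 genes and kept 15212, and tested with edgeR 4.0.16 (quasi-likelihood, TMM, group alone, two-sided, Benjamini-Hochberg, 0.05) in R 4.3.3. SE is the log2 fold change divided by the square root of F. TPM and transcript shares are descriptive. Tested on simulated data with 200 of 14907 genes changed, this comparison recovered 51% of log2 changes of 1 and 92% of those of 2, with 5.92% false calls. The changed genes were drawn from those with larger counts and were a far smaller share than the 15.2% called here. These rates may therefore not hold for scarce genes or for the real comparison. Counting error alone limits low genes: 3 counts are 0.118 to 0.139 CPM in vehicle.

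Values per library are given for members past the threshold and for the 8 with the highest mean TPM. From each partner list at most 4 called genes are named by smallest p, and Gdi2, Rabggta, Chm and Lrrk2 whatever their p. A further gene that this rule names is not reported here. Alternatives were DESeq2 1.42.0, limma 3.58.1 (voom, and log2 of FPKM plus a pseudocount of 1 or 0.1, for genes with at least 0.5 FPKM in 4 libraries or all), other scalings and filters, length-scaled TPM counts, a replicate block, and libraries left out.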

Additional observations from a re-analysis of the deposited data

Results flagged for a closer look

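Among the 104 sets of 4 libraries (52 tested Rab genes in each group), 12 held a library far from the other 3, where chance alone flags about 1 in 20. CCl4 2 stood out for Rab32, at 354 CPM with the others at 263 to 274 CPM, and for Rab39, at 22.4 CPM with the others at 11 to 12.7 CPM. CCl4 1 stood out for Rab8b, at 761 CPM with the others at 456 to 481 CPM. CCl4 4 was highest for the scarce Rab38 (2.38 CPM, others 1.71 to 1.81), Rab3b (3.00 CPM, others 0.509 to 0.905) and Rab3c (4.28 CPM, others 1.22 to 1.54). In vehicle 2 Rab11a was high at 241 CPM (others 215 to 218), Rab21 at 11.1 CPM (others 6.40 to 6.97) and Rab3c at 3.16 CPM (others 1.66 to 1.76), and Rab3d was low at 24.5 CPM (others 40.6 to 41.8). Vehicle 1 was high for Rab10 at 154 CPM (others 113 to 119). Vehicle 4 was high for Rab1 at 199 CPM, where the others were at 194 to 195 CPM, a gap that is small in size. Of the 12, 7 belong to the 2 shallowest libraries, CCl4 4 and vehicle 2.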

How the results depend on the processing

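Rab5b and Rab24 passed in all 21 alternatives. Over the 8 called and the 8 most abundant members, 282 alternative values kept direction and side of the threshold, 29 lost a call, 4 gained one and 17 turned sign. Over named partners and Rab7b these were 322, 45, 2 and 1. Over the 36 other tested members, 621 values stayed uncalled in the same direction, 12 of 6 genes gained a call (Rab2b, Rab5c, Rab9, Rab21, Rab28 and Rab34), and 92 of 19 genes turned sign, none with a call (7 of these genes with FPKM, Rab5a, Rab22a and Rab43 among them). Among the genes of the first 2 counts, those whose sign turned were uncalled: Rab20 (-0.11 with library size only, -0.065 with upper-quartile scaling, -0.071, -0.072 and -0.071 with FPKM at pseudocounts of 1 and 0.1 and unfiltered, and -0.060 to 0.18 without 1 library, at -0.003277 without CCl4 3), Rab11b (-0.079, -0.028, then -0.17, -0.18 and -0.17 under the same settings, -0.001212 with length-scaled TPM counts, and -0.020 to 0.13 without 1 library), Rab1 (-0.10, -0.11 and -0.10 with FPKM), and Chm (-0.046 with unfiltered FPKM). The median log2 fold change of all genes was -0.03 with TMM, -0.16 with library size and -0.12 with upper quartile, and 58.8%, 43.1% and 47.5% of calls were higher.

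Counts of calls moved as follows. Library size gave 1431 lower genes. Upper quartile gave 7 lower Rab genes, DESeq2 7 higher, and length-scaled TPM counts 2 lower Rab genes and 2 lower partners. FPKM with a pseudocount of 1 gave 556 higher and 623 lower genes, 2 and 2 Rab genes and 5 higher partners, and with 0.1 it gave 536, 602, 2, 2 and 5, with fewer genes tested. Unfiltered FPKM gave 335 and 315 genes, 1 and 1 Rab genes and 3 and 2 partners. The named partners that still passed there were Dennd4a, Rab11fip1, Rab11fip5, Dennd2d and Evi5, and the filtered FPKM ended the calls of Rabac1, Tbc1d15, Tbc1d23 and Vipas39. Without CCl4 4 and vehicle 2, 7 Rab genes were higher (Rab14, Rab21 and Rab9 added) and 7 partners lower. Leaving out 1 library gave 578 (CCl4 1) to 1163 lower genes, 3 to 6 higher and 1 (without CCl4 1) to 3 lower Rab genes, 10 to 17 higher and 2 to 7 lower partners. The cause was not tested. For Rab12 the lead transcript's share difference was -14.2 points in TPM, against -5.74 in counts.

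The values gave no sign that the replicate numbers in the titles mark a pairing. Same-numbered libraries had correlations of their deviations of 0.0152, -0.241, 0.0387 and -0.169, and no library correlated best with its own number. So few libraries cannot settle whether the numbers mark a pairing. With the replicate block 4 Rab genes were higher and 3 lower, without Rab23 (edgeR adjusted p = 0.0922). At this depth low genes such as Rab36 or Rab42 could differ without being detectable.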
